A study of Mus musculus with 6 samples.

Results

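The 9 genes described here encode the KMT2 and SETD histone methyltransferases Kmt2a, Kmt2b, Kmt2c, Kmt2d, Kmt2e, Setd1a, Setd1b and Setd2, and the related enzyme Nsd1. They were taken by symbol, 9 of the 24559 genes measured, and each symbol matched 1 row. They were chosen because KMT2 genes had some of the smallest p-values among genes with lower values after L-4F, so their difference between the groups is given as a description and without a test. RNA sequencing was done on CD8+ T cells from the spleen of C57BL/6 wild-type mice, labelled as primary culture cells. 3 libraries came from cells given L-4F, an apolipoprotein A1 mimetic peptide (apolipoprotein A1 is the chief protein of HDL particles), and 3 from cells that received ABCT buffer. All 6 share the genotype, tissue and cell type, and the labels give neither the dose nor the time of treatment. The study asked what apolipoprotein A1 does to the immune functions of CD8+ T cells.

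Methylation of lysine 4 of histone H3 (H3K4) marks promoters and enhancers, and methylation of lysine 36 (H3K36) marks transcribed gene bodies. The H3K4 enzymes work as the catalytic subunits of COMPASS complexes, which share a core of WDR5, RBBP5, ASH2L and DPY30: KMT2A and KMT2B act with menin at promoters, KMT2C and KMT2D at enhancers, and SETD1A and SETD1B place much of the trimethyl mark at active promoters. SETD2 travels with elongating RNA polymerase II and places the trimethyl mark on H3K36, NSD1 places the dimethyl mark, and KMT2E carries a SET domain that is regarded as catalytically inactive together with a PHD finger that binds methylated H3K4. In CD8+ T cells these marks are laid down and removed at effector and memory genes as the cells differentiate.

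The 3 promoters printed next belong to the members of the KMT2 family with the largest differences among the 5 members (Kmt2a, Kmt2c, Kmt2d, Setd1a and Setd2) that matched the RefSeq promoter table (GRCm38.p6). Each runs 5′ to 3′ on the gene's own strand over the 250 bases before the annotated start, and capitals mark the GC box GGGCGG on either strand, the core of the site bound by SP1-type factors. The Kmt2a promoter lies at chr9:44881290-44881539 on the minus strand, that of Kmt2c at chr5:25498784-25499033 on the minus strand, and that of Kmt2d at chr15:98871206-98871455 on the minus strand.
Kmt2a: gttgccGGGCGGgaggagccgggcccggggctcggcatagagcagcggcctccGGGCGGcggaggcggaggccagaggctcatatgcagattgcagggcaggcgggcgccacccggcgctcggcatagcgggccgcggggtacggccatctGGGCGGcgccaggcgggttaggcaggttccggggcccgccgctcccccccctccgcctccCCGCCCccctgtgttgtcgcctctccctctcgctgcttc
Kmt2c: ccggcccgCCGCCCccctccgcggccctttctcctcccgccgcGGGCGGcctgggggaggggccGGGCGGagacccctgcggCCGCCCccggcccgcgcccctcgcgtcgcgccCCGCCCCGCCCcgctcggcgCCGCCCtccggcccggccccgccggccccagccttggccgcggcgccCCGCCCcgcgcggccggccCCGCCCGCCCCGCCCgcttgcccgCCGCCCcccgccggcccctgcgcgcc
Kmt2d: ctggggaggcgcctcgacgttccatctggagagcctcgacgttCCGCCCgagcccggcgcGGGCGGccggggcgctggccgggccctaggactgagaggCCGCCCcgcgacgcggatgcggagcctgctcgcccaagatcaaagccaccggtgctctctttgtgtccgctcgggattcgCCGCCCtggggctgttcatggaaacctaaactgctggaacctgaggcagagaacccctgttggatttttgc
Kmt2a and Kmt2d held 4 GC boxes each and Kmt2c held 12. A GC box was present in 4 of the 5 member promoters, and in 32.7% of the 32851 promoters of the table. The member without one was Setd1a. Its window (chr7:127777139-127777388, plus strand) lies inside the gene as GENCODE M21 draws it (chr7:127776670-127800122), so it is not the sequence before that start. Kmt2a also held 1 ETS core (CCGGAA, searched on both strands), which 12% of all promoters held. None of the 5 held a CCAAT box (CCAAT, 33.9% of all promoters), a TATA box (TATAAA, 12.4%), an E box (CACGTG, 6.02%) or the hypoxia response core (ACGTG, 16.6%, which every E box contains), each searched on both strands. The 5 promoters were rich in CpG, with 25 to 48 CpG dinucleotides in 250 bases against a median of 6 over the table, and had a GC content of 67.6% to 91.6% against a median of 52.4%. A match or its absence describes only the letters of this window.

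Depth was 25073292 to 31332003 reads per library. Of 14922 genes with at least 10 normalized reads in at least 3 libraries, 2947 were lower and 2747 higher with L-4F at a limma adjusted p under 0.05, so 48.2% of the calls were higher; with each library centred on its median gene the split was 3630 lower and 2161 higher, 37.3% higher. The CD8 T cell markers summed to 3624 to 3655 CPM (read counts scaled to the same library total) in the buffer libraries and 4080 to 4151 CPM with L-4F, and 6 of 7 were called higher. Markers of other cells were far lower: 36.1 to 39.6 CPM against 43.3 to 46.0 CPM for natural killer cells (3 of 5 tested called higher), 31.5 to 32.1 against 38.7 to 42.9 CPM for neutrophils (3 of 4 tested higher), 8.07 to 9.35 against 11.2 to 12.2 CPM for B cells (1 of 4 tested higher), 6.26 to 7.45 against 9.18 to 10.2 CPM for erythroid cells (2 of 3 tested higher), 7.90 to 8.23 against 7.42 to 8.97 CPM for CD4 T cells (1 of 3 tested lower), 3.35 to 4.04 against 2.52 to 3.11 CPM for dendritic cells (1 of 2 tested lower) and 44.7 to 52.5 against 46.6 to 49.9 CPM for macrophages and monocytes (0 of 5 tested called by limma, 0 at an unadjusted p under 0.05 and 0 by limma-voom). No marker present in the table was at 0 in all 6 libraries, and the part of these shifts in the values below was not tested. In bulk samples, fewer cells of a type and less RNA per cell cannot be told apart.

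All 9 genes were lower with L-4F than with buffer, and in 9 of 9 the highest L-4F library lay below the lowest buffer library. Over all genes tested, 24.4% had lower values without overlap; since the members were picked on this contrast, nothing is read from the comparison. Kmt2a, Kmt2d, Kmt2e and Kmt2c had the largest differences, and Setd1a, Setd2 and Nsd1 the smallest. Values are normalized reads, the read count divided by a library factor; they show differences between libraries for 1 gene, not levels between genes.

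Kmt2a, the KMT2 enzyme of the menin complex that is rearranged in infant leukaemia, had 16556, 16251 and 16576 normalized reads in the buffer libraries and 8874, 9027 and 9364 in the L-4F libraries. The means were 16461 ± 182 (SD, n = 3) and 9088 ± 251 (SD, n = 3), 44.8% lower with L-4F, a log2 difference of -0.86. The 2 sets of values were far apart, the highest L-4F library being 42.4% below the lowest buffer library, the widest such gap among the 9 genes. Its close relative Kmt2b, which shares menin and the same domain plan, had 5585, 5466 and 5515 normalized reads with buffer and 4166, 4119.9 and 4041 with L-4F. Its mean went from 5522 ± 60.0 to 4109 ± 63.2 (SD, n = 3 each), 25.6% lower and -0.43 on the log2 scale. The Kmt2b groups did not overlap either, and the Kmt2a to Kmt2b ratio, which needs no library factor, was 2.98 ± 0.022 with buffer and 2.21 ± 0.095 with L-4F (SD, n = 3 each), without overlap. Pairs of other genes were not compared in this way, so nothing is read from that.

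The enhancer enzymes were close to each other. Kmt2c, which places the monomethyl mark at enhancers, had 8015, 8028 and 7955 normalized reads with buffer and 4749.7, 4879 and 4900.05 with L-4F. The buffer libraries lay within 1 percent of each other, and the mean went from 7999 ± 38.8 to 4843 ± 81.4 (SD, n = 3 each), 39.5% lower and -0.72 on the log2 scale. Kmt2d, its relative in the same class of complex, is the member with the most reads. Kmt2d had 19724, 19353 and 19546 with buffer and 11356, 10948 and 11536.5 with L-4F. Its mean went from 19541 ± 186 to 11280.1 ± 301 (SD, n = 3 each), 42.3% lower and -0.79 on the log2 scale. The Kmt2d to Kmt2c ratio moved little, from 2.44 ± 0.028 to 2.33 ± 0.076 (SD, n = 3 each), although its groups did not overlap.

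The SETD1 pair had smaller differences. Setd1a, the catalytic subunit of a complex with CXXC1 and WDR82, had 4401, 4097 and 4233 normalized reads with buffer and 3422, 3493 and 3389 with L-4F. Its mean went from 4243 ± 152 to 3435 ± 53.0 (SD, n = 3 each), 19.1% lower and -0.30 on the log2 scale, the smallest difference of the 9. In GENCODE M21 the exons of Setd1a share 3523 nt, 51.9% of their bases, with the same-strand gene Gm49388, which had a mean of 44.5 reads, so the Setd1a value depends on how shared reads were assigned and is uncertain. Setd1b, which has the fewest reads of the 9, had 2899, 2969.5 and 3090.1 with buffer and 2140.1, 2029 and 2141 with L-4F. Its mean went from 2986 ± 96.6 to 2103 ± 64.6 (SD, n = 3 each), 29.6% lower and -0.51 on the log2 scale, the median of the 9 genes.

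Kmt2e, the member with the inactive SET domain, had 6118, 6093 and 6110.15 normalized reads with buffer and 3563, 3575 and 3461 with L-4F. The buffer libraries were the tightest of any member, with a coefficient of variation of 0.212%, and all L-4F libraries lay at least 41.3% below the lowest of them. The mean went from 6107 ± 13 to 3533 ± 62.6 (SD, n = 3 each), 42.1% lower and -0.79 on the log2 scale. Its exons share 972 nt, 9.31% of their bases, with Srpk2 on the opposite strand, which had a mean of 2272 reads. The libraries were strand-specific, but the labels do not give the strand setting of the counting.

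The H3K36 enzymes were at the lower end of the differences. Setd2, which trimethylates H3K36, had 5045, 5226 and 4855 normalized reads with buffer and 4052, 4169.6 and 3989 with L-4F. Its mean went from 5042 ± 185 to 4070.2 ± 91.8 (SD, n = 3 each), 19.3% lower and -0.31 on the log2 scale, and the gap of 14.1% between the groups was the narrowest of the 9. Nsd1, which dimethylates H3K36 and is mutated in Sotos syndrome, had 10495, 10269 and 10574 with buffer and 7944, 7994 and 8274 with L-4F. Its mean went from 10446 ± 158 to 8071 ± 178 (SD, n = 3 each), 22.7% lower and -0.37 on the log2 scale. Both genes thus had L-4F libraries wholly below the buffer libraries, by a smaller margin than Kmt2a, Kmt2c, Kmt2d and Kmt2e.

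**Figure D1:**
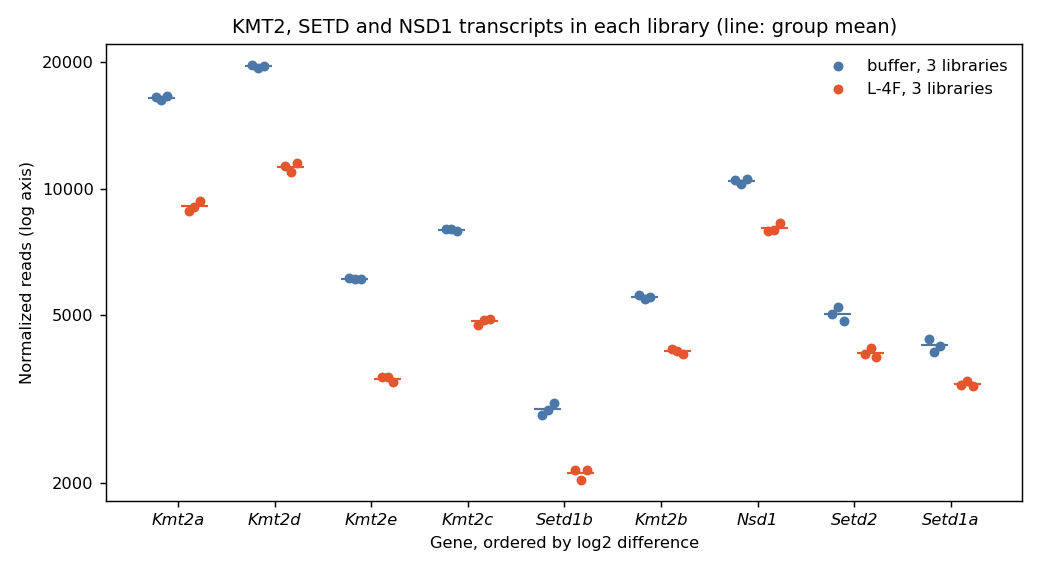
Normalized reads (log axis) of the 9 genes, ordered by their log2 difference, in the 3 buffer libraries (blue) and the 3 L-4F libraries (red), with lines at the group means. Every red point lies below every blue point of its gene, from Kmt2a at the left (44.8% lower) to Setd1a at the right (19.1% lower).

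The spread between libraries was small beside these differences. The coefficient of variation of the 9 genes was 0.212% to 3.68% among buffer libraries and 1.54% to 3.07% among L-4F libraries, while the median over the 2584 genes with at least the level of the lowest member was 1.86% and 2.44%. Summed over the 9 genes, normalized reads were 78347 ± 551 with buffer and 50532 ± 488 with L-4F (SD, n = 3 each), 35.5% lower. The 9 genes took 0.282% to 0.286% of all reads in the buffer libraries and 0.179% to 0.184% in the L-4F libraries. In the authors' deposited table, ordered by their p-value over 24559 genes, Kmt2a ranked 1, Kmt2d 4, Kmt2c 12 and Kmt2e 14. Nsd1 ranked 186, Kmt2b 205, Setd1b 309, Setd2 630 and Setd1a 707 in the authors' deposited table, which is the ordering that drew attention to the KMT2 genes.

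To compare levels between genes, normalized reads were divided by the length in kb of the longest annotated transcript. With buffer, Kmt2a (999 ± 11 per kb, SD, n = 3) and Kmt2d (986 ± 9.36) stood highest and overlapped. Kmt2e (835 ± 1.77) and Nsd1 (817 ± 12.4) came next, followed by Setd1a (654 ± 23.5) and Kmt2b (652 ± 7.09), which overlapped. Setd2 (604 ± 22.2), Kmt2c (534 ± 2.59) and Setd1b (337 ± 10.9) had the lowest levels per kb, each apart from its neighbours.

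With L-4F the order per kb differed. Nsd1 had the highest level (631 ± 13.9 per kb, SD, n = 3), above Kmt2d (569 ± 15.2) and Kmt2a (552 ± 15.2), whose libraries overlapped. Setd1a followed at 529 ± 8.17, and Setd2 (487 ± 11), Kmt2b (485 ± 7.46) and Kmt2e (483 ± 8.56) formed a run of overlapping neighbours. Kmt2c (324 ± 5.44) and Setd1b (237 ± 7.30) stayed the lowest of the 9. By this measure Kmt2e moved from place 3 to place 7 and Nsd1 from place 4 to place 1. The places between genes depend on the length used. Summed exons are longer than the longest transcript for Kmt2e (10444 against 7317 nt) and Nsd1 (17483 against 12784 nt). For Kmt2a they are close (16670 against 16470 nt), and by summed exon length Nsd1 would not lead with L-4F.

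**Figure D2:**
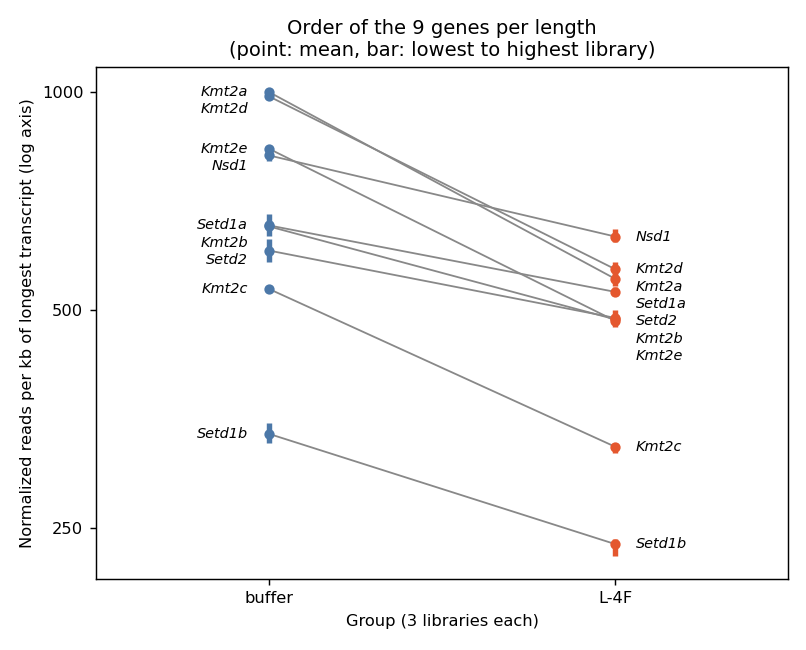
Normalized reads per kb of the longest transcript (log axis) for the 9 genes in the buffer group (blue) and the L-4F group (red), as means of 3 libraries with bars from the lowest to the highest library. Kmt2a and Kmt2d lead with buffer at 999 and 986 per kb, and Nsd1 leads with L-4F at 631 per kb.

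Among the 6 H3K4 enzymes the makeup shifted. Kmt2a made up 24% of their summed per-kb level with buffer and 20.46% with L-4F, and Kmt2d 23.7% and 21.1%. Setd1a went the other way, from 15.7% to 19.6%, and Kmt2b from 15.7% to 18.0%. Kmt2c (12.8% and 12%) and Setd1b (8.10% and 8.81%) kept closer shares. The Setd1a value is uncertain, as its exons overlap those of Gm49388, and every share depends on it. The trend in transcript length described below was -0.42 at Kmt2a, -0.44 at Kmt2d and -0.41 at Kmt2c. At Setd1b it was -0.29, at Kmt2b -0.28 and at Setd1a -0.19. The part of this trend in the shares and ratios was not tested. The ratio of Kmt2a to Setd1a normalized reads was 3.88 ± 0.107 with buffer and 2.65 ± 0.10 with L-4F (SD, n = 3 each), and that of Kmt2e to Setd2 was 1.21 ± 0.046 and 0.868 ± 0.011. Neither pair of ratios overlapped between the groups, and nor did the Kmt2d to Kmt2c ratio, which moved little. The members were picked on this contrast and pairs of other genes were not compared, so nothing is read from the lack of overlap.

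All 9 are genes with long messages. The choice of members did not use length itself, but falls and length went together in these data (next paragraph). The choice was therefore not independent of length. Their longest annotated transcripts run from 6487 nt (Setd1a) to 19823 nt (Kmt2d), against a median of 2963.5 nt over all genes tested, and all 9 lie among the 1491 longest transcripts (10% of genes), which start at 6327 nt. Their coding sequences span 5148 to 16764 nt (median of all genes tested 1119), in 17 to 59 exons (median 6). The genes themselves are less uniform, with spans from 19869 bp (Kmt2b, chr7:30568858-30588726) to 226986 bp (Kmt2c, chr5:25271798-25498783), and transcript GC contents of 44.3% (Setd2) to 59.1% (Kmt2b) lie on both sides of the median of 49.4%. In GENCODE M21 (GRCm38) the other members lie at chr9:44803355-44881296 (Kmt2a), chr15:98831669-98871204 (Kmt2d), chr5:23434441-23504235 (Kmt2e), chr7:127776670-127800122 (Setd1a), chr5:123142193-123168629 (Setd1b), chr9:110532597-110618633 (Setd2) and chr13:55209782-55318325 (Nsd1).

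The log2 difference between L-4F and buffer moved with transcript length over the whole table. Across genes, which are not independent replicates, Spearman's rho between log2 difference and length was -0.45 over 14910 genes. The 1491 genes with the longest transcripts had a median log2 difference of -0.28, and 63.7% of them were called lower, while 19.7% of all genes tested were. Across the 9 members rho was -0.68 with transcript length, -0.58 with coding length, -0.15 with gene span and -0.12 with GC content, all given as descriptions of points that share 6 libraries.

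**Figure D3:**
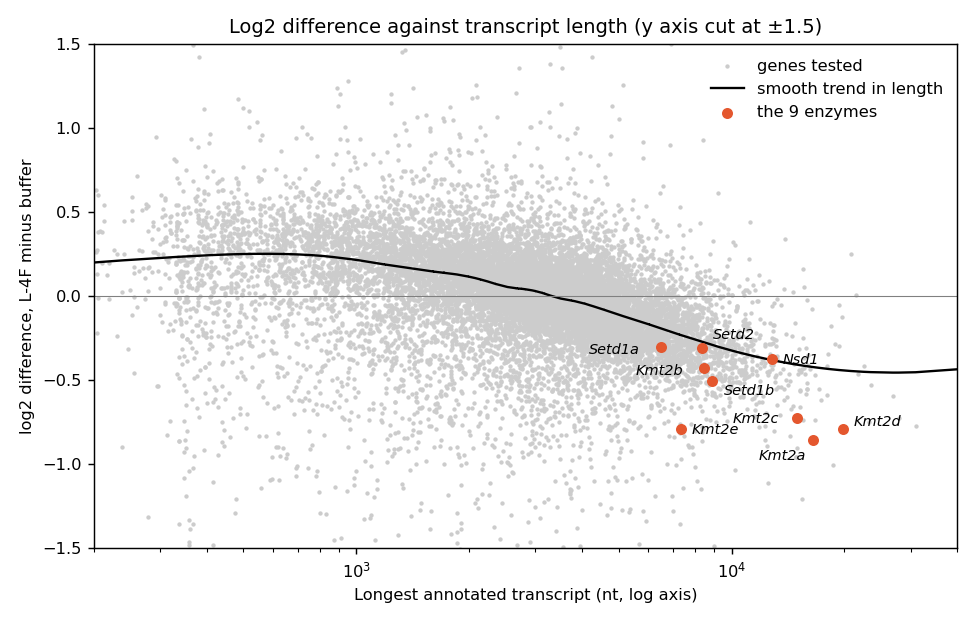
Log2 difference (L-4F minus buffer) against the length of the longest annotated transcript in nt (log axis) for the genes tested (grey), with the smooth trend (black) and the 9 enzymes (red). 277 genes lie outside the axes. Nsd1 and Setd2 lie near the trend, and Kmt2a, Kmt2c, Kmt2d and Kmt2e lie below it. Of all genes, 5.45% lie as far below the trend as Kmt2e or farther, and 11.6% as far as Kmt2c or farther, with Kmt2a and Kmt2d between.

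To see how the members stood against genes of their own length, a smooth trend in transcript length was removed from each library. The trend at the members' lengths was -0.19 (Setd1a) to -0.44 (Kmt2d) on the log2 scale. Kmt2e then had the largest difference, -0.56. The trend was -0.23 at its transcript of 7317 nt, against -0.42 for Kmt2a (16470 nt) and -0.41 for Kmt2c (14967 nt). Kmt2a came to -0.43, Kmt2d to -0.35 and Kmt2c to -0.32. Setd1b came to -0.22, Kmt2b to -0.15 and Setd1a to -0.11. By this measure Setd2 (-0.04) and Nsd1 (0.01) were at the level of other genes of their transcript length.

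After this step 7 of 9 members had L-4F libraries wholly below the buffer libraries, all but Setd2 and Nsd1, whose groups overlapped. Over all genes 20.1% were lower without overlap after this step, and the same libraries chose the members, so nothing is read from the count. The median of the 9 went from -0.51 to -0.22 on the log2 scale, while the median of all genes tested was 0.00 before and -0.01 after. With a trend in summed exon length in place of transcript length, the 9 differences ran from -0.60 (Kmt2e) to -0.07 (Nsd1) with a median of -0.29. Setd2 was at -0.12 by summed exon length. With a trend in GC content the median of the 9 was -0.52.

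Members of like length differed among themselves. Kmt2b (8469 nt), Setd2 (8350 nt) and Setd1b (8857 nt) had log2 differences of -0.43, -0.31 and -0.51. Kmt2e, shorter than all of these by longest transcript (7317 nt), had -0.79. By summed exon length Kmt2e (10444 nt) lies between Kmt2b (9596 nt) and Setd2 (10754 nt). Nsd1 (12784 nt) had -0.37 and Kmt2c (14967 nt) had -0.72, so that the order of the 9 differences was not the order of their lengths.

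**Figure D4:**
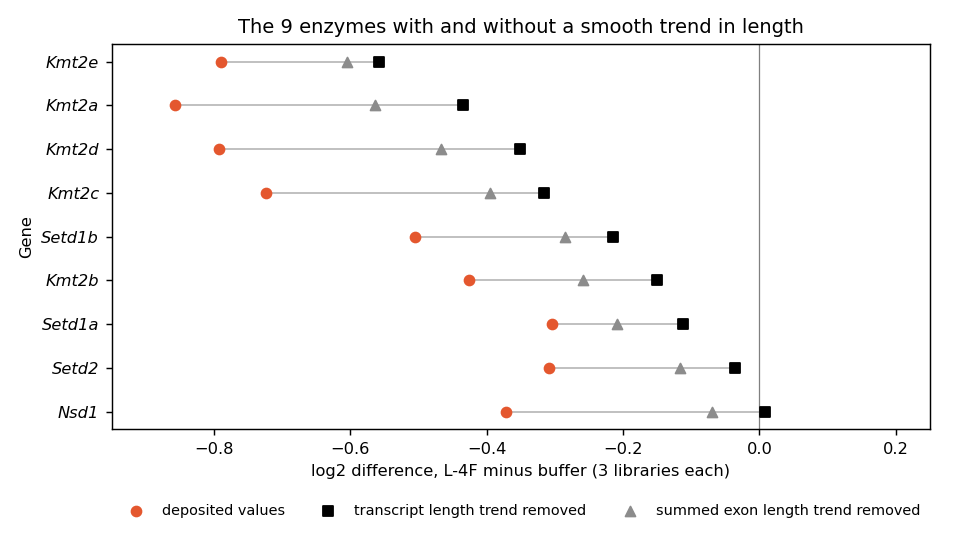
Log2 differences (L-4F minus buffer, 3 libraries each) of the 9 genes from the deposited values (red circles), after removal of a smooth trend in transcript length (black squares) and after removal of a trend in summed exon length (grey triangles). Kmt2e and Kmt2a have the largest differences once transcript length is removed, at -0.56 and -0.43, and Nsd1 reaches 0.01.

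By the rule used for likeness, the root mean square distance between centred log2 profiles over the 6 libraries, the genes nearest to the mean profile of the members among 9217 candidates included Ubr4 (0.0101), Helz (0.0112), Rictor (0.0157), Srrm2 (0.0167), Mycbp2 (0.0169), Macf1 (0.0224), Herc2 (0.0226), Tet2 (0.0229) and Birc6 (0.0239). The members' own distances to that mean were larger, from 0.0476 (Setd1b) to 0.148 (Kmt2a). The genes listed for likeness had log2 differences of -0.53 (Macf1) to -0.59 (Rictor), and their longest transcripts ran from 8864 nt (Srrm2) to 23495 nt (Macf1). They include the MTOR complex subunit Rictor and the DNA demethylase Tet2. With the length trend removed their differences ran from -0.07 (Macf1) to -0.29 (Rictor).

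The genes that work with these enzymes were taken from 7 lists, 148 tested of 156 listed. The choice of the 9 members did not use the lists. The lists were themselves chosen with earlier results of these data known, so they are no independent check. Of the 148, 70 were called lower and 15 higher at a limma adjusted p under 0.05, with a median log2 difference of -0.12; over all genes tested 19.7% were called lower and 18.4% higher, with a median of 0.00. With the length trend removed 38 were called lower and 21 higher with a median of -0.05, against 13.1% lower and 13.1% higher over all genes, and 35 of the 148 were called lower both ways. The median transcript of these genes was 4323.5 nt.

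The shared COMPASS subunits differed in both directions. Of 18 tested, 6 were called lower and 3 higher, with a median of -0.04, and with the length trend removed 5 and 2, with a median of -0.09. The core subunit Wdr5 had 2414 ± 47.4 normalized reads with buffer and 2442 ± 58.4 with L-4F (SD, n = 3 each), a difference of 0.02 that did not pass the test (limma adjusted p = 0.763), and Ash2l likewise had 2142 ± 51.7 and 2181 ± 102 (0.03, limma adjusted p = 0.675). Ash2l was called higher with the exon length trend removed (0.18, limma adjusted p = 0.00267). Rbbp5, which bridges the core, was lower by a small amount (-0.13, limma adjusted p = 0.0136), a call lost without buffer replicate 1 or 2 (the value stayed within -0.17 to -0.11 as each library was left out). Dpy30, the smallest core subunit, rose from 1157 ± 27.7 to 1452 ± 38.1 (0.33, limma adjusted p = 1.02e-05). With the length trend removed its difference was 0.09 (transcript 789 nt, limma adjusted p = 0.209). Dpy30 stayed called higher with the exon length trend removed (0.13, limma adjusted p = 0.0494).

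Among subunits of single complexes, the largest falls were in Bod1l of the SETD1 complexes (-0.55, limma adjusted p = 6.85e-11), Hcfc1, which joins the SETD1 and KMT2A complexes (-0.51, limma adjusted p = 5.65e-12), and Ncoa6 of the KMT2C and KMT2D complexes (-0.40, limma adjusted p = 1.59e-08). All 3 stayed lower with the length trend removed, at -0.21, -0.24 and -0.18 (limma adjusted p at most 0.000718). Kdm6a, the H3K27 demethylase of the KMT2C and KMT2D complexes, fell by 0.26 (limma adjusted p = 7.56e-06). Its value was -0.10 with the length trend removed (limma adjusted p = 0.0582) and -0.12 with the exon length trend removed (limma adjusted p = 0.0165). Men1, which encodes menin, had -0.09 (limma adjusted p = 0.138). Men1 was at -0.04 without L-4F replicate 2 and -0.06 without buffer replicate 3, and was called lower without L-4F replicate 1 (-0.13), with median centring (-0.13) and with a GC trend removed (-0.11). Cxxc1, the CpG-binding subunit of the SETD1 complexes, had -0.09 (limma adjusted p = 0.0688) and passed the test with the length trend removed (-0.14, limma adjusted p = 0.00804) and in 5 of the 16 alternatives that leave length alone, among them without L-4F replicate 1 (-0.12); without L-4F replicate 3 it was at -0.06. Wdr82, which tethers the SETD1 enzymes to RNA polymerase II, was higher by 0.12 (limma adjusted p = 0.00251) and by 0.14 with the length trend removed.

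The other SET domain enzymes and DOT1L held 18 genes called lower and 0 called higher of 35 tested, with a median of -0.15, and with the length trend removed 11 lower and 3 higher with a median of -0.09. At an unadjusted p under 0.05 in limma 2 were higher, limma-voom called 0 higher, and without buffer replicate 1 or 2 limma called 1 or 2 higher. Ash1l, which dimethylates H3K36, had 3675, 3649 and 3669 normalized reads with buffer and 2276, 2357.5 and 2422 with L-4F, without overlap. Its difference was -0.64 (limma adjusted p = 3.63e-12) and -0.28 with the length trend removed (limma adjusted p = 1.98e-06). Nsd3, a relative of Nsd1, fell by 0.27 (limma adjusted p = 1.11e-08), with 0.06 once the length trend was removed (limma adjusted p = 0.0819). Nsd2, the third NSD enzyme, fell by 0.11 (limma adjusted p = 0.00504) and was higher by 0.14 with the length trend removed (limma adjusted p = 0.00037), so its direction turned with this choice.

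Setd7, which monomethylates H3K4, fell by 0.37 (limma adjusted p = 9.49e-10), Prdm2 by 0.40 (limma adjusted p = 1.93e-09), Dot1l, the H3K79 enzyme, by 0.35 (limma adjusted p = 6.92e-09), and Setd5 by 0.31 (limma adjusted p = 9.95e-09). These 4 stayed lower by 0.11 to 0.17 with the transcript length trend removed, but with the exon length trend removed Setd5 was at -0.0022 (limma adjusted p = 0.965). Ezh2, the H3K27 methyltransferase, fell by 0.10 (limma adjusted p = 0.012), a call lost without buffer replicate 1 or 3, with quantile normalization and in limma without trend and robust spread. Once transcript length was removed Ezh2 was at -0.14 (limma adjusted p = 0.0012), and once exon length was removed at -0.0069 (limma adjusted p = 0.89). Ezh2 lies in a list of its own complex too: of 12 tested genes of polycomb repressive complex 2, 4 were called lower and 3 higher, with a median of -0.01, and 1 and 2 with the length trend removed. Rbbp4, a histone chaperone of that complex, was higher by 0.15 (limma adjusted p = 4.69e-05) and by 0.24 with the length trend removed.

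The list of H3K4 and H3K36 demethylases, which remove methyl groups from the same lysines, held 9 called lower and 0 called higher of 16 tested. Its median was -0.16, and with the length trend removed 6 were lower and 1 higher, with a median of -0.07. In the deposited values 0 of the list were higher at an unadjusted p under 0.05 in limma, and limma-voom called 0 higher. The list also holds Rcor1 and Rcor3, which encode CoREST scaffolds and not demethylases. Both are counted among the genes called lower, with and without the length trend. Rcor3 had -0.27 (limma adjusted p = 0.00861), -0.25 with the length trend removed (limma adjusted p = 0.0251) and -0.025 with the exon length trend removed (limma adjusted p = 0.85). Kdm2b fell by 0.48 (limma adjusted p = 4.65e-08) and its value was -0.36 with the length trend removed (limma adjusted p = 7.68e-06). Rcor1, the CoREST scaffold that brings KDM1A to nucleosomes, fell by 0.32 and Kdm4a by 0.27 (limma adjusted p = 3.36e-06 and 1.48e-05), with -0.17 and -0.18 once the length trend was removed. Kdm1a itself had 0.04 (limma adjusted p = 0.496). Kdm5a, Kdm5b and Kdm5c, which remove the trimethyl mark from H3K4, fell by 0.29, 0.17 and 0.27 (limma adjusted p = 2.77e-07, 0.00937 and 1.16e-07). With the length trend removed Kdm5c was at -0.08, and Kdm5a and Kdm5b turned to 0.05 and 0.11; the call of Kdm5b was also lost without L-4F replicate 2. Kdm2a fell by 0.18 (limma adjusted p = 2.89e-05) and was higher by 0.10 with the length trend removed (limma adjusted p = 0.00699).

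The readers of these marks were mixed, with 12 called lower and 5 higher of 29 tested and a median of -0.02, and 5 lower and 3 higher with the length trend removed. Bptf, which binds trimethylated H3K4 in a chromatin remodeller, fell by 0.63 (limma adjusted p = 1.55e-13), and by 0.26 with the length trend removed (limma adjusted p = 3.22e-07). The DNA methyltransferase Dnmt3a, whose PWWP domain binds methylated H3K36, fell by 0.39 (limma adjusted p = 8.57e-09). Its value was -0.08 once the length trend was removed (limma adjusted p = 0.0995) and -0.10 by exon length (limma adjusted p = 0.0307). Chd1 fell by 0.36 and Phf2 by 0.28 (limma adjusted p = 1.33e-09 and 2.01e-06), at -0.11 and -0.14 with the length trend removed. Morf4l1, the MRG15 reader of H3K36 methylation, rose from 5854 ± 164 to 6701 ± 165 normalized reads (SD, n = 3 each; 0.20, limma adjusted p = 1.21e-05), and Zcwpw1 rose by 0.36 (limma adjusted p = 6.58e-06). Both were also higher with the length trend removed, at 0.28 and 0.35.

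The partners that fuse to KMT2A in leukaemia and the transcription elongation factors held 19 called lower and 4 higher of 30 tested, with a median of -0.17. With the length trend removed 9 were lower and 8 higher, with a median of 0.01. The genes named next are those with the smallest adjusted p, and all come from the genes called lower. Aff4 and Aff1, scaffolds of the super elongation complex, fell by 0.51 and 0.48 (limma adjusted p = 4.3e-10 and 1.03e-09). Cdk12, a kinase of the RNA polymerase II tail, fell by 0.47 (limma adjusted p = 5.04e-10), Polr2a, the large subunit whose tail SETD2 binds, by 0.38 (limma adjusted p = 1.36e-10), and Supt6 by 0.36 (limma adjusted p = 1.21e-09). With the length trend removed these 5 had values of -0.17 (Supt6) to -0.30 (Cdk12), each with a limma adjusted p of at most 0.000632. Cdk13, the close relative of Cdk12, fell by 0.29 (limma adjusted p = 2.97e-07) and turned to 0.09 with the length trend removed (limma adjusted p = 0.0398).

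Of 13 tested genes known from other systems to depend on KMT2A and menin, 4 were called lower, 1 higher and 8 not called. Their median was -0.19, which is the value of Gata3, and their mean was -0.10. With the length trend removed 2 were lower and 3 higher, with a median of -0.04. Whether they depend on KMT2A in these cells was not tested. Bach2, a repressor that holds T cells in a naive or memory state, had 3680, 3695 and 3589 normalized reads with buffer and 2583, 2652.5 and 2586 with L-4F. The groups did not overlap, the difference was -0.49 (limma adjusted p = 1.3e-10), and with the length trend removed it was -0.20 (limma adjusted p = 8.72e-05). Jmjd1c fell by 0.45 (limma adjusted p = 2.36e-10) and by 0.17 with the length trend removed. Cdk6 fell by 0.26 (limma adjusted p = 9.77e-10) and was higher by 0.10 with the length trend removed (limma adjusted p = 0.000901). Mef2c, at 210.1 ± 16 and 151 ± 19.1 normalized reads (SD, n = 3 each), fell by 0.48 (limma adjusted p = 0.00393), with a limma adjusted p of 0.0886 once the length trend was removed. Gata3 had -0.19 (limma adjusted p = 0.0604). Gata3 was at -0.12 without L-4F replicate 2 and at -0.28 without L-4F replicate 3, where it was called lower, as it was in 5 of the other alternatives that leave length alone and with the exon length trend removed. Cdkn2c, a cell cycle inhibitor, was higher by 0.20 (limma adjusted p = 0.0177), a call lost without buffer replicate 2 or L-4F replicate 1.

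**Figure D5:**
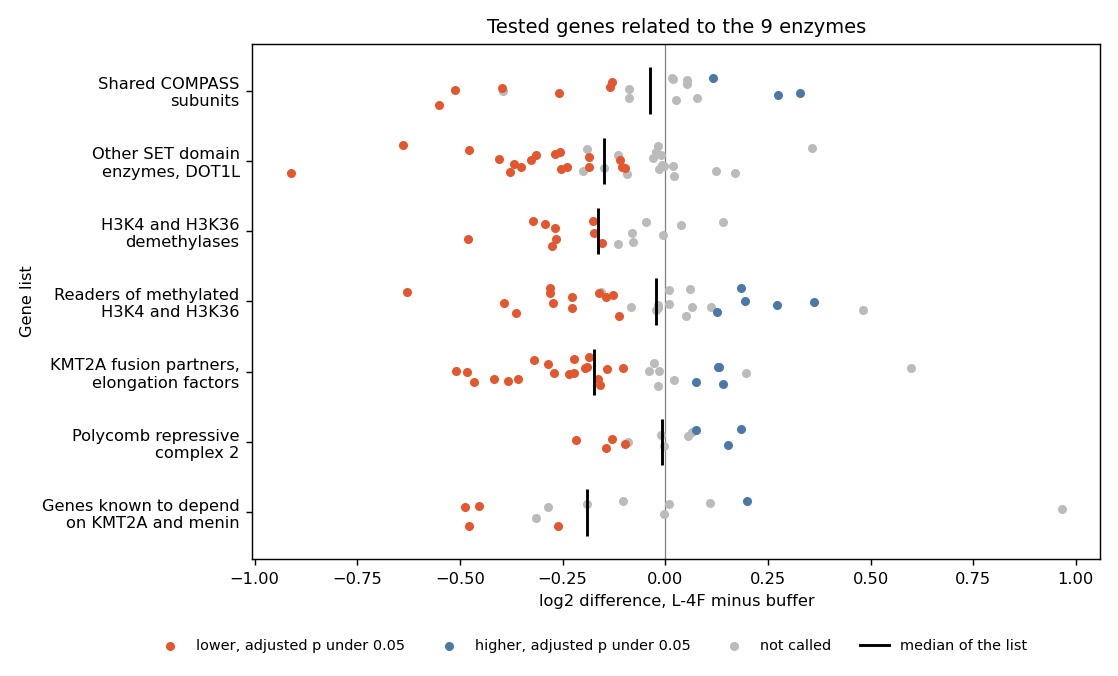
Log2 differences (L-4F minus buffer) of the tested genes of 7 lists around the 9 enzymes, 1 point per gene, red for called lower, blue for called higher and grey for not called, with a black line at each list's median. The medians lie between -0.19 for genes known from other systems to depend on KMT2A and menin and -0.01 for polycomb repressive complex 2.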

How the data were processed

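The deposited table gave a log2 value per gene for 6 libraries of RNA from CD8+ T cells. Per the labels' protocols the libraries were strand-specific (TruSeq), and StringTie 1.3.1c is named in the submitters' processing notes beside FastQC (0.11.2, 0.11.5). No source used here names the aligner, build, annotation or counting tool. The deposited log2 values equal log2 of a read count over a library factor (0.899 to 1.13), plus 1: within 0.01 read, 100% of genes gave whole reads. The authors' deposited p-value was used only for ranks.

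Genes with at least 10 normalized reads in 3 libraries (14922) were tested with limma 3.58.1 under R 4.3.3 (trended, robust spread from statmod 1.5.0) on the log2 values, group as the only term, with Benjamini-Hochberg adjustment over all of them. Log2 differences understate the change of genes with few reads. The labels do not say that libraries of a group are separate mice or cultures, so p-values cover the spread between these libraries, which could be technical. GENCODE M21 (GRCm38) supplied lengths and GC content for 14910 genes tested, and length trends were robust loess curves (span 0.3) fitted per library. Procedures were tested on simulated data. Each related list gave its genes with the smallest adjusted p, up to 6, besides 18 taken whatever their result; some are not printed. Of the 10 genes with the nearest profiles, 1 is not reported here. The members and lists were chosen with earlier results of these data known. Alternatives were other scalings, filters of low values, limma settings, limma-voom on the recovered reads, a pseudocount of 0.1, a replicate block and each library left out; exon length, GC content, and the block joined with transcript length were added after seeing the data. At this depth a count of 0 allows up to 0.0957 to 0.120 CPM (3 counts, counting error only).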

Additional observations from a re-analysis of the deposited data

How the results depend on the processing

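With transcript length removed, genes called lower numbered 1948 (1857 with the replicate block as well), related genes called lower 38 (38 by exon length, 40 with block and length), and the median of the 9 enzymes was -0.2152 on the log2 scale (-0.2152 with the block, -0.2856 by exon length). That median was -0.5459 with median centring and -0.4708 with quantile normalization, and -0.5266 to -0.4797 as each library was left out. Related genes called higher fell to 6 in limma without trend and robust spread; over the 16 alternatives that leave length alone, related genes called lower numbered 55 to 77. Direction turned with transcript length removed, with or without the block, for Nsd1 (0.008411), Aebp2 (0.03341), Cdk13 (0.09073), Cdk6 (0.09673), Jarid2 (0.05502), Kdm2a (0.1039), Kdm5a (0.05498), Kdm5b (0.1108), Nsd2 (0.145) and Nsd3 (0.05918), and by exon length for Aebp2 (0.04259), Kdm2a (0.08665), Kdm5b (0.118), Nsd2 (0.1893) and Nsd3 (0.02446). By list, limma without trend and robust spread called 1 COMPASS subunit (3 in the report), 3 readers (5) and 0 elongation genes (4) higher, and 1 polycomb gene lower (4) and 1 higher (3); median centring called 1 elongation gene (4) and 0 KMT2A-dependent genes (1) higher, a filter at 100 normalized reads 1 other SET domain gene higher (0), and leaving out L-4F replicate 1 gave 0 KMT2A-dependent genes higher (1). Of the 50 related genes named by rule, which leave out Rcor3, 38 had no change of call in the 16 alternatives that leave length alone. Among these 38, Wdr5, Ash2l and Kdm1a, not called, changed sign (lowest -0.024, -0.015 and -0.0019). By exon length 9 named genes kept their direction but lost their call (Cdk13, Cdk6, Cdkn2c, Ezh2, Jarid2, Kdm5a, Mef2c, Mtf2 and Setd5) and 3 gained one (Ash2l, Cxxc1 and Gata3). Aebp2, Kdm5b and Nsd3, whose direction turned by exon length, lost their call there too. Same-numbered libraries deviated together with correlations of 0.0511, 0.0111 and 0.109 over genes, and buffer replicate 2 correlated best with L-4F replicate 1, so the numbers were not taken as pairs. The replicate block gave 2866 genes lower and 2655 higher and changed no call among the named genes. The cause of the length trend was not tested.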
